A study of Mus musculus with 18 samples.

Results

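The mitochondrial respiratory chain subunits encoded in the nucleus were followed as transcripts in mouse Th17 cultures, the interleukin-17-producing class of CD4 T helper cells. Protein-coding genes whose symbols carry the usual prefixes of complexes I to V (Nduf, Sdh, Uqcr, Cox4 to Cox8 and Atp5) were taken when they reached a level of 1 TPM (a transcript level scaled for exon length and library size) in at least 3 of 18 libraries. Of 87 such symbols, 83 passed, among 45703 genes in the table and 14229 genes that were tested. They comprised 38 genes of complex I, 4 of complex II, 8 of complex III, 16 of complex IV and 17 of complex V, the ATP synthase. The 4 below the minimum were Cox7b2, Cox8b and Cox8c, all listed at 0, and Ndufa4l2, which reached 0.346 TPM. Just above it stood Cox4i2 with a mean of 1.83 TPM and Cox6b2, which ran from 0 to 8.83 TPM.

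The study compared wild type cells (WT) with cells of Slc2a3-fl/fl Cd4-cre mice (GLUT3KO), which lack the glucose transporter GLUT3 in T cells, and of Acly-fl/fl Cd4-cre mice (ACLYKO), which lack ATP-citrate lyase there. The background is given as C57BL/6, with other numbers in place of the 6 for some libraries. Naive CD4 T cells were polarized for 48 h, then kept for another 24 h without or with acetate, at 20 mM in the sample protocols and 10 mM in the series text. All groups were finally restimulated for 5 h with PMA, ionomycin, brefeldin A and monensin. Each of the 6 groups has 3 libraries of polyadenylated RNA. No label says that the replicates were separate mice. The p-values therefore set differences between groups only against the spread of libraries within groups, which may be technical variation. In the main fit that spread is estimated jointly over the 6 groups, not from the groups compared alone. Cd4-cre acts in every T cell that passes the CD4-expressing stage, and no age or sex is given.

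Complexes I to IV pass electrons from NADH and succinate to oxygen and pump protons across the inner mitochondrial membrane, apart from complex II, which pumps none. Complex V uses the proton gradient to make ATP. Most subunits are encoded in the nucleus and imported, and a few of complex IV exist as alternative isoforms that are best known from heart, muscle, lung or testis. Citrate leaving the mitochondria is split by ATP-citrate lyase into acetyl-CoA, and acetate can feed the same acetyl-CoA pool through another enzyme.

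The libraries held 18697197 to 30101756 assigned reads, as recovered from the TPM and exon lengths, and a median of 438 to 1680 reads per member. Slc2a3 was at most 8.20 TPM in GLUT3KO against 14.4 to 19.8 in WT, and Acly at most 14.4 TPM in ACLYKO against 391.9 to 400.3 in WT. Both targeted genes were low where the labels say, and Slc2a3 was also below WT in ACLYKO, at 5.76, 13.1 and 11.7 TPM, so it does not mark the GLUT3KO libraries alone. Which exons were deleted is not stated. T helper markers summed to 885 to 1867 TPM in all libraries. The summed level of 7 Th17 markers was 1381 to 1587 TPM in WT, 336 to 411 in GLUT3KO and 396 to 520.4 in ACLYKO. With acetate it was 3134 to 4144, 2262 to 2626 and 1090 to 1313 TPM in the same order. The part of this marker difference in the results below was not tested, and in such bulk samples fewer cells of a type and less RNA per cell cannot be told apart. Markers of CD8 T cells, B cells, myeloid cells, NK cells and erythroid cells summed to at most 19.9, 5.61, 9.53, 11.0 and 7.07 TPM.

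Before the comparisons it must be said that 5 libraries were set apart after the data were seen. These were WT 1, GLUT3KO 1 and 3, ACLYKO 1 and ACLYKO with acetate 1. In each of them 64 to 73 of the 83 members lay below the group mean. These 5 libraries lay on the same side of the leading principal component of the deviations from group means, which held 63.6% of their variance, and the subunits moved along it. Their scores were 0.2205 to 0.674, except for GLUT3KO 3 at 0.0306. By this score GLUT3KO 3 was close to GLUT3KO with acetate 1 (0.0166), and GLUT3KO 2 (-0.27), ACLYKO 2 (-0.27) and ACLYKO 3 (-0.40) lay further out on the opposite side. In GLUT3KO with acetate 1, which was kept, 70 members lay below the group mean. The median member lay 0.34 log2 units below its group mean in WT 1 (log2 deviation -0.34), with -0.32 in GLUT3KO 1, -0.09 in GLUT3KO 3, -0.59 in ACLYKO 1 and -0.27 in ACLYKO with acetate 1. In GLUT3KO 2 and ACLYKO 3 it lay above, by 0.41 and 0.48. The 3 libraries of WT with acetate were within -0.02 and 0.02. Of the members 69 of 83 had a loading of this sign, against 58.7% of all tested genes. The median exon length was 795 bases in the members and 2835 in all tested genes, and across all tested genes the loading rose with exon length (Spearman's rho 0.35) and fell with GC content (-0.41), a description across genes that share libraries. Among the members these values were 0.20 and -0.28. Counts of called members, and single values that moved by over 1.5 times, are therefore also given without these 5 libraries. Untreated GLUT3KO then has 1 library, GLUT3KO 2, whose spread is assumed to be that of the other groups. Its median member lay further from the group mean than those of GLUT3KO 1 and 3. Counts without the 5 libraries are therefore left out where untreated GLUT3KO is compared. As the 5 were picked from the data, calls without them are no separate evidence.

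**Figure D1:**
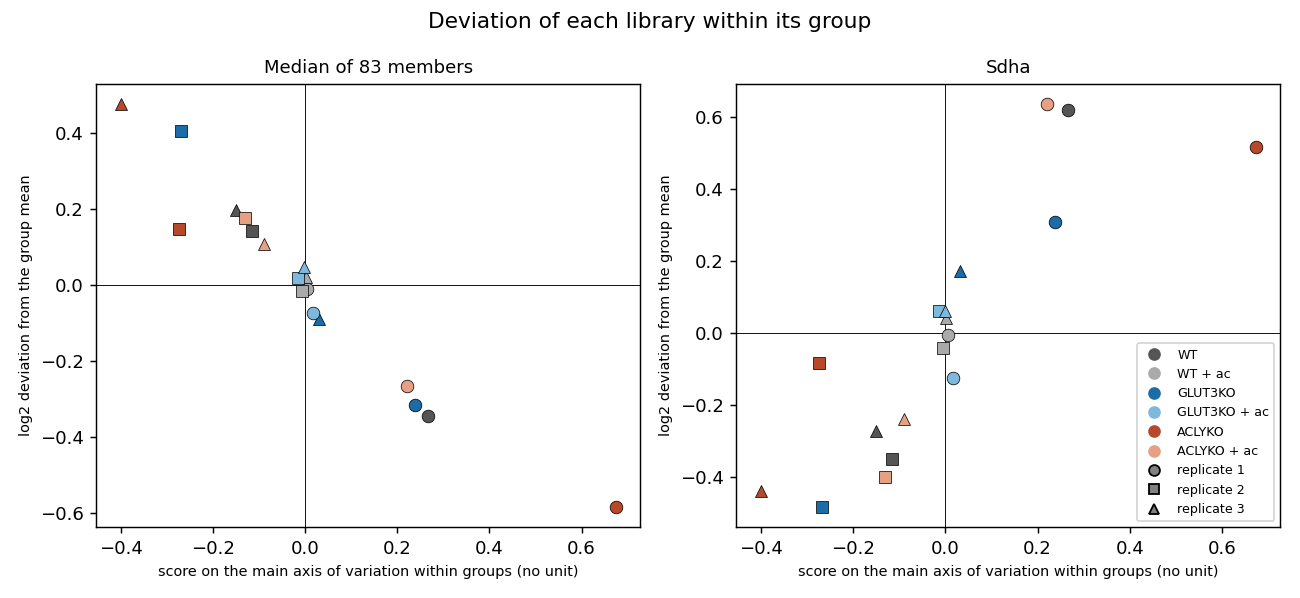
Each point is 1 library; the x axis is its score on the leading component of the deviations from group means over all tested genes (no unit), and the y axis the log2 deviation from its group's mean, for the median of the 83 members (left) and for Sdha (right). Libraries with high scores have a low member median, down to -0.59 in ACLYKO 1, and a high Sdha; those of WT and GLUT3KO with acetate lie near 0.

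Sdha, the flavoprotein of complex II, moved the other way along this axis. Its level was 218, 111 and 117 TPM in WT 1 to 3, 265, 153 and 241 in GLUT3KO and 325, 214 and 167 in ACLYKO. Each time the library or libraries that were set apart had the most. The membrane anchors Sdhc and Sdhd went with the majority of the members. Sdhc was at 44.3, 95.4 and 106 TPM in WT and 35.8, 108 and 48.9 TPM in GLUT3KO, and Sdhd at 83.6, 146 and 163 TPM and 58.5, 124 and 82.2 TPM. Without acetate WT and GLUT3KO overlapped for all 4 genes of complex II, Sdhb with its iron-sulfur centres included, which ran from 114 TPM in an ACLYKO library to 226 TPM in another.

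The ATP synthase was the most abundant complex by the sum of its members' TPM, a scale that is per length. In WT it summed to 4904 ± 516 TPM (SD, n = 3), complex IV to 3471 ± 764, complex I to 3438 ± 551, complex III to 1824 ± 205 and complex II to 519 ± 46.7. In GLUT3KO the sums were 4017 ± 568 for complex V, 2510.0 ± 759 for complex IV, 2721 ± 683 for complex I, 1596 ± 272 for complex III and 519.5 ± 56.8 for complex II. GLUT3KO overlapped with WT in each complex, because GLUT3KO 2 lay above WT 1 in each. In ACLYKO complex V summed to 4954 ± 832 TPM, complex IV to 3027 ± 883 and complex I to 3675 ± 785, also overlapping with WT. Complex III was at 1609 ± 102 TPM in ACLYKO, and its range of 1493 to 1685 overlapped with the 1591 to 1973 TPM of WT. With acetate it was at 1731 ± 195 TPM in ACLYKO and 2045 ± 29.0 in WT, where all WT libraries were above the ACLYKO ones.

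With acetate the sums of WT and GLUT3KO were tighter. In ACLYKO the SD of complex IV went from 883 to 554 TPM, with libraries from 2927 to 3967 TPM under acetate. Complex III was the only complex to widen there, from an SD of 102 to 195 TPM. In WT with acetate complex IV summed to 3980.5, 4065 and 3986 TPM, and in GLUT3KO with acetate to 3192, 3323 and 3378 TPM. Complex I was at 3692, 3662 and 3753 TPM in the former and 2967, 3156 and 3283 TPM in the latter. Both complexes were lower in all 3 GLUT3KO libraries than in any WT library with acetate. Complexes III and V were too, at 1854 to 1911 against 2012 to 2069 TPM and 4570 to 4747 against 5128 to 5243 TPM. Complex II overlapped, at 461 to 519 against 479 to 514 TPM. No p is given for these sums, because the members were chosen with results of these data known.

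**Figure D2:**
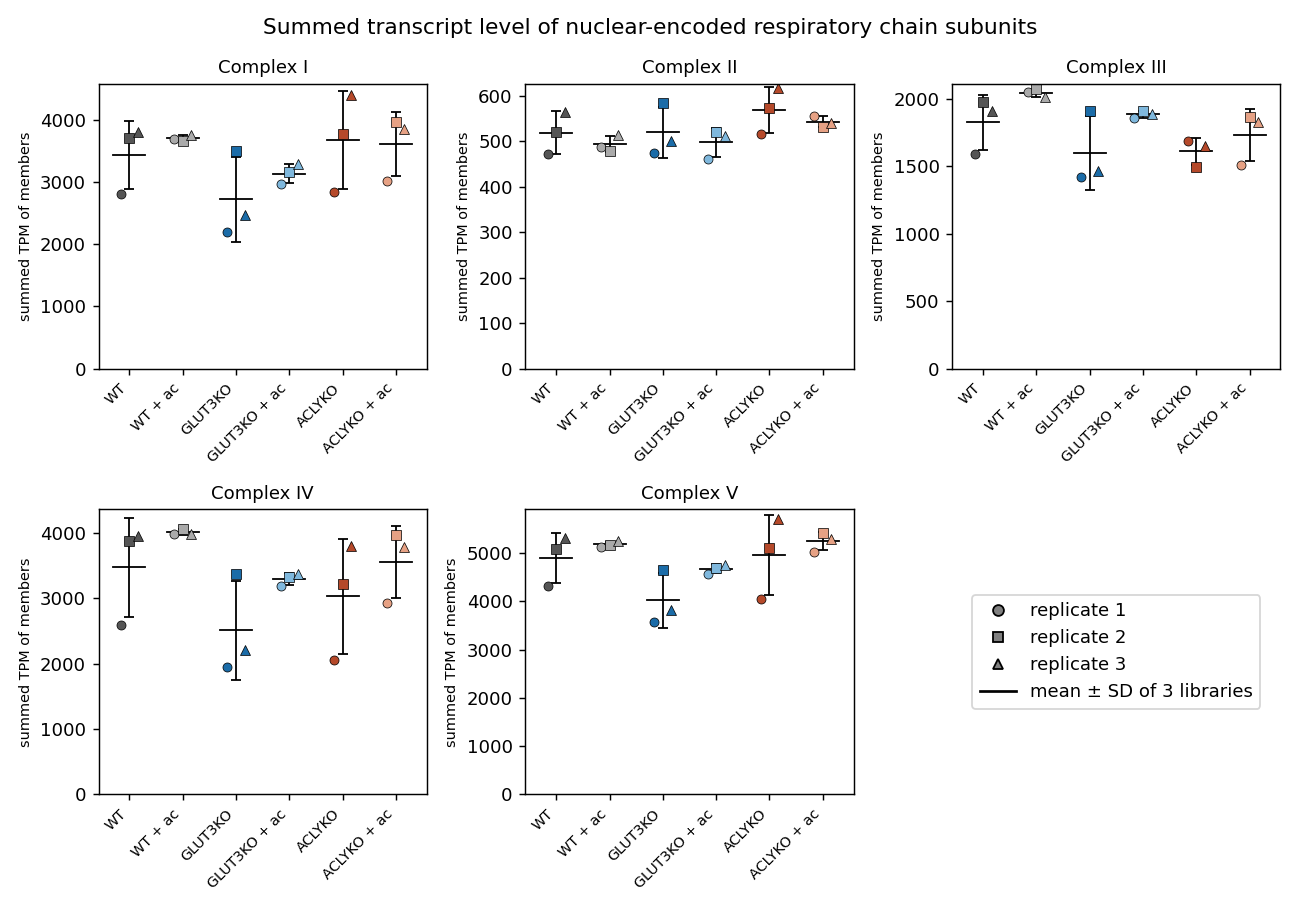
The y axis is the TPM summed over the members of each complex; points are libraries (symbol by replicate number), lines and bars the mean ± SD of 3, and the groups are on the x axis with ac for acetate. Complex IV lies at 3192 to 3378 TPM in GLUT3KO with acetate, under the 3980.5 to 4065 TPM of WT with acetate, while untreated groups spread widely.

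Within a complex, levels ran over a wide range. Atp5b, the catalytic beta subunit of the ATP synthase, had the highest mean at 1563 TPM and Atp5mpl, a small membrane subunit, the lowest of that complex at 101 TPM. In complex IV the means ran from 718 TPM for Cox4i1, the common isoform of subunit 4, to 1.83 TPM for its counterpart Cox4i2. In complex III they ran from 576 TPM for the hinge protein gene Uqcrh to 103 TPM for Uqcr11. In complex I they ran from 328 TPM for Ndufb1 to 15.5 TPM for Ndufb2, and in complex II from 166 TPM for Sdha to 78.2 TPM for Sdhc.

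Differences between groups beyond the spread of their libraries were found in 3 minor isoforms of complex IV. Cox6a2 (chr7:128205435-128206366, minus strand, GRCm38.p6), the heart and muscle isoform of subunit 6A, was at 8.72, 7.03 and 9.39 TPM in WT and 1.14, 1.53 and 0.726 with acetate. It was at 6.95, 6.91 and 8.29 TPM in GLUT3KO and 0.879, 0.656 and 1.18 with acetate. In ACLYKO it was at 7.31, 33.8 and 37.7 TPM, and 1.33, 2.13 and 1.41 with acetate. In each genotype all libraries with acetate were under all libraries without it, and the 2 high ACLYKO libraries exceeded every other one. Each value with acetate rests on 4 to 19 reads, and each value without it on 38 to 260. Fold ratios of these means are therefore imprecise.

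Cox7a1 (chr7:30184171-30186030, plus strand), the heart and muscle isoform of subunit 7A, was at 7.51, 13.4 and 11.8 TPM in WT and 11.6, 11.7 and 10.8 with acetate. It was at 2.18, 5.12 and 3.93 TPM in GLUT3KO and 2.94, 4.43 and 4.84 with acetate. In ACLYKO it was at 4.05, 4.21 and 2.61 TPM, and 3.73, 4.64 and 4.12 with acetate. None of the 12 knockout libraries reached the lowest WT library. Between 8 and 61 reads stand behind each of these values.

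Cox4i2 (chr2:152753916-152765039, plus strand), the isoform of subunit 4 known from lung and from hypoxia, was at 1.97, 3.20 and 3.37 TPM in WT and 4.12, 4.28 and 4.32 with acetate. It was at 0.726, 1.30 and 1.57 TPM in GLUT3KO and 1.81, 1.05 and 0.672 with acetate. In ACLYKO it had 1 read in all 3 libraries together (0, 0.104 and 0 TPM), and 1.19, 1.26 and 1.97 TPM with acetate. Against 81 reads in WT, the ratio of ACLYKO to WT was 0.0140, with an exact 95% interval from 0.00035 to 0.0802 that covers counting error only. The gene span of Bcl2l1, a survival gene on the opposite strand, overlaps that of Cox4i2. Bcl2l1 was at 59.8, 105 and 91.9 TPM in the ACLYKO libraries where Cox4i2 was at or near 0.

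Relative to their common counterparts all 3 were minor. Cox6a2 made up 3.40% ± 1.13 (SD, n = 3) of the summed TPM of Cox6a1 and Cox6a2 in WT, 3.25% ± 1.10 in GLUT3KO and 8.87% ± 1.42 in ACLYKO. With acetate its share was 0.374% ± 0.128, 0.246% ± 0.0694 and 0.485% ± 0.0924. Cox7a1 made up 11.0% ± 1.15 of Cox7a1 and Cox7a2 in WT, 5.33% ± 1.01 in GLUT3KO and 4.63% ± 2.35 in ACLYKO. A share within a library does not change with the scaling of that library. In ACLYKO 1, where the TPM of Cox6a2 was within the range of WT, its share was 7.24%, above the 2.66% to 4.70% of WT. Cox6a1 was also low in that library, at 93.7 TPM against 314 and 353 in ACLYKO 2 and 3.

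**Figure D3:**
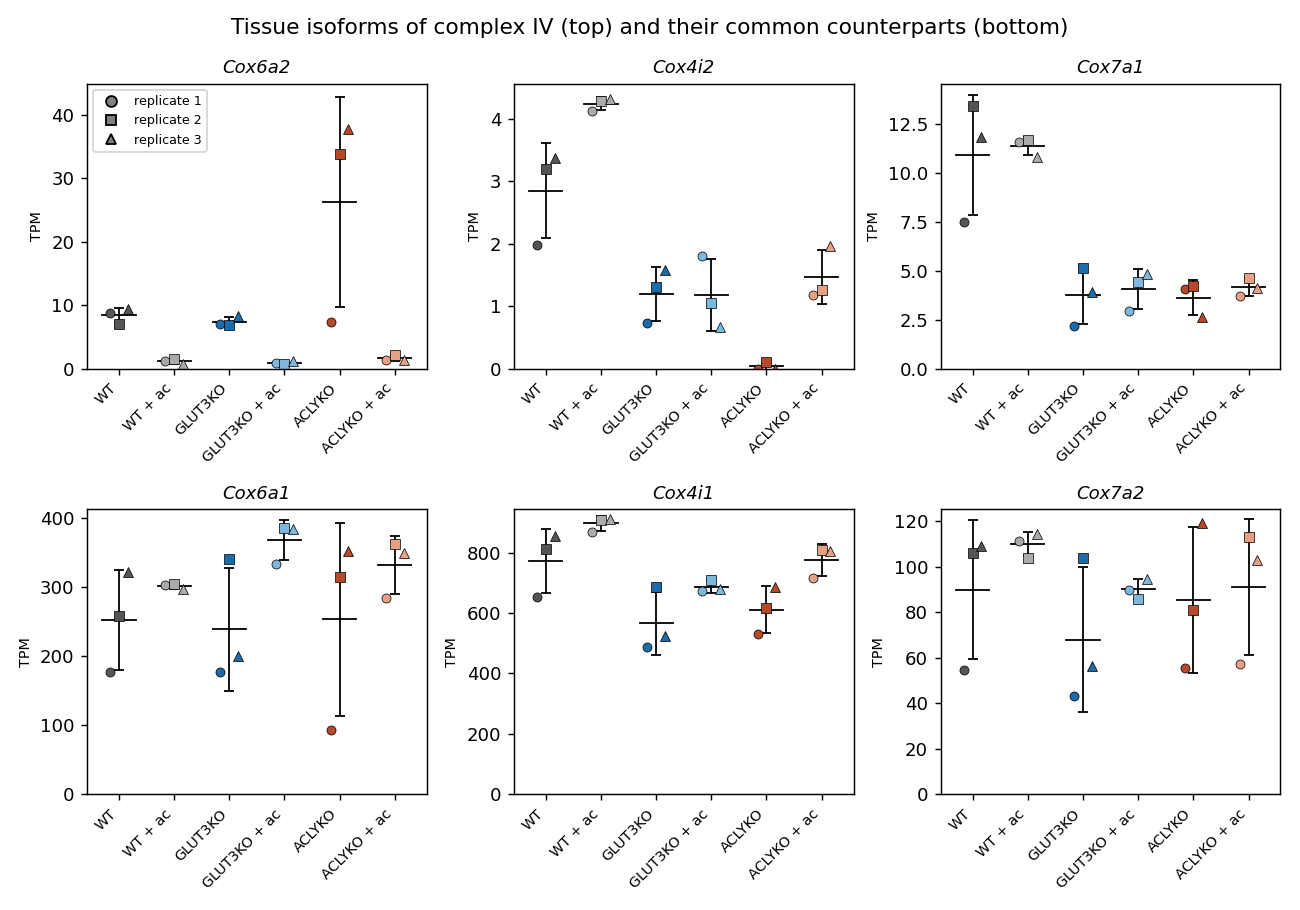
The y axis is TPM on a linear scale from 0, with the groups on the x axis (ac for acetate); points are libraries (symbol by replicate number), lines and bars the mean ± SD of 3. Cox6a2 lies at or under 2.13 TPM in all libraries with acetate, Cox7a1 at or under 5.12 TPM in all knockout libraries, and Cox4i2 at 0 to 0.104 TPM in ACLYKO; the common isoforms below them are far higher.

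Nuclear genes of the respiratory chain are often described as targets of the factors NRF1 and the ETS protein GABP, so the bases just before their starts were searched on both strands for the letters GCGCA, any 1 base and GCGC (NRF1), and for CCGGAAG (ETS). RefSeq windows of GRCm38.p6 matched 68 of 83 members, with 73 windows of 250 bases before the start. The NRF1 letters were in 19.2% of these windows, in 8.2% of the windows of tested genes and in 3.7% of all windows. The ETS letters were in 16.4%, 14.3% and 6.9%, and the E-box CACGTG in 9.6%, 8.4% and 6.0%. By complex, 7 of 35 windows of complex I, 2 of 3 of complex II, 0 of 5 of complex III, 1 of 12 of complex IV and 4 of 18 of complex V held the NRF1 letters. The windows are shown for 4 members that the results turn on or that stand beside them, as the 200 bases that end 51 bases before the start, 5′ to 3′ on the gene's strand, with NRF1 and ETS matches in capitals. Cox6a1 (chr5:115349009-115349208, minus strand) and Cox7a1 (chr7:30183921-30184120, plus strand) show a common and a muscle isoform. Ndufb4 (chr16:37654419-37654618, minus strand) and Ndufv3 (chr17:31519865-31520064, plus strand) are complex I genes that differed in GLUT3KO.
Cox6a1: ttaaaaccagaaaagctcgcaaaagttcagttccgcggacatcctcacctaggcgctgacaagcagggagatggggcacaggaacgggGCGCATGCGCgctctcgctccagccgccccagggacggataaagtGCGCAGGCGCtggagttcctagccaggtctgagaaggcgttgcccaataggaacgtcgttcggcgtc
Cox7a1: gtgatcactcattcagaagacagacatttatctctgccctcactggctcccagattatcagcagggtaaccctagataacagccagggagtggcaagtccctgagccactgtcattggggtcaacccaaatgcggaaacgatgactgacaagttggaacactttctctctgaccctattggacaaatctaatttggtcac
Ndufb4: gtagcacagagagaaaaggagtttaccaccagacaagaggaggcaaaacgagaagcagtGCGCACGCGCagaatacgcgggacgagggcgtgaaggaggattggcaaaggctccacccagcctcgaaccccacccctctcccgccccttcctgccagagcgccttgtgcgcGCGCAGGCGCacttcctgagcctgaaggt
Ndufv3: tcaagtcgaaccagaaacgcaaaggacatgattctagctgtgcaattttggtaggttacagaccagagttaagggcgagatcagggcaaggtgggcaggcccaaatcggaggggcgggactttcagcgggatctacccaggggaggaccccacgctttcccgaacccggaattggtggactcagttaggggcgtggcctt
Cox6a1 holds 2 NRF1 matches, both shown, and 1 ETS match nearer to the start. Ndufb4 holds 3 NRF1 matches in its 250 bases, of which 2 are in the stretch shown. In Cox7a1 and Ndufv3 neither these letters nor those of the ETS motif are in the window. A match is a description of the letters and not of binding, and 2 genes that were lower in GLUT3KO, Ndufb4 and Ndufv3, differ in it.

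In cells without GLUT3, measured without acetate, 12 of the 83 members were lower than in WT and 0 higher (limma on log2(TPM + 1), Benjamini-Hochberg adjusted p under 0.05). That is 14.5% of the members lower, against 8.47% of all tested genes lower and 24.9% higher (33.4% in either direction). They belonged to complex I (7 of 38) and complex IV (5 of 16), and none to complexes II, III and V. Ndufb4 and its near-identical paralogs Ndufb4b and Ndufb4c, which may share reads, are counted separately among the 7. Without the 5 libraries complexes II and III had 1 lower and 1 higher each and complex V 4 lower and 1 higher, so the limit to complexes I and IV did not hold there. The median log2 change of the members was -0.42, against 0.17 over all tested genes, and 77 of 83 estimates were negative, in complex V all 17. Without the 5 libraries it was -0.20 against 0.20, with -0.21 in complex I (from -0.42), -0.28 in complex IV (from -0.54) and -0.17 in complex V (from -0.42). On this scale the change of genes with low TPM is understated.

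In complex I, the accessory membrane arm subunit gene Ndufb4 (chr16:37647602-37654368) was at 35.2, 38.8 and 41.0 TPM in WT and 21.9, 30.5 and 18.7 in GLUT3KO. The groups did not overlap, and the log2 change was -0.70 ± 0.17 (SE, limma adjusted p = 0.0057). It was -0.38 without the 5 libraries. Its near-identical paralogs Ndufb4b and Ndufb4c followed at -0.67 and -0.68 (-0.35 and -0.37 without them), but reads may be split among the 3, so they are uncertain as separate genes. Ndufa10 (chr1:92439486-92473825), an accessory subunit of the membrane arm, was at 136, 112 and 118 TPM in WT and 97.1, 84.8 and 88.6 in GLUT3KO. All 3 GLUT3KO libraries were lower, with a log2 change of -0.43 ± 0.12 (SE, limma adjusted p = 0.01). Ndufv3, an accessory subunit near the NADH binding site, was also lower (-0.40 ± 0.12, adjusted p = 0.02), from 37.1, 44.8 and 47.2 TPM to 29.9, 32.1 and 34.7. With a correction of each library for exon length and GC content 7 members were called, of which 2 were among these 12. Ndufb4, Ndufa10, Ndufv3 and Cox4i2 then no longer passed, and Ndufb10, lower without the correction (-0.34), came to 0.01.

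In complex IV, Cox7a1 was lower in GLUT3KO with a log2 change of -1.35 ± 0.25 (SE, limma adjusted p = 0.000715), a 2.92-fold ratio of the mean TPM. Cox4i2 changed by -0.81 ± 0.21 (adjusted p = 0.0071), and its GLUT3KO libraries held 6 to 12 reads. Cox4i1 was at 652, 812 and 854 TPM in WT and 489, 685 and 524 in GLUT3KO, overlapping, with a log2 change of -0.45 (adjusted p = 0.033). Cox7b, a small subunit gene on the X chromosome, changed by -0.80, and Cox7a2l, which takes part in joining complexes III and IV, by -0.49. The calls of Cox4i1, Cox7b and Cox7a2l were each kept in 9 of 15 alternatives, and leaving out WT 2, WT 3, GLUT3KO 1 or GLUT3KO 3 alone ended them. These 3 changes were -0.28, -0.43 and -0.29 without the 5 libraries. The fit of only the groups compared called 6 members.

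In complex V, where no member passed, the 3 genes for the identical mature c subunit spread widely within groups. Atp5g2 was at 91.8, 219.8 and 234 TPM in WT and 42.6, 141 and 70.9 in GLUT3KO (-1.14 ± 0.85). Atp5g1 and Atp5g3 had estimates of -0.75 ± 0.49 and -0.73 ± 0.46. Without the 5 libraries, where GLUT3KO 2 alone stands for its group, Atp5g2 and Atp5g1 had smaller changes, -0.68 and -0.36. Atp5g2 was at 8.59 TPM in ACLYKO 1 against 154 and 225 TPM in ACLYKO 2 and 3, so the lowest values of these genes were in the 5 libraries named above.

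With acetate, 9 members were lower in GLUT3KO than in WT and 1 higher, 10.8% and 1.2% of the members, against 9.5% and 20.9% of all tested genes (30.4% in either direction). The 4 in complex I were Ndufv3, Ndufb10, Ndufa10 and Ndufa12. In complex IV they were Cox4i2, Cox7a1 and Cox7a2l, in complex III Uqcrc2 and in complex V Atp5c1, while the Rieske iron-sulfur protein gene Uqcrfs1 was higher. The groups did not overlap for 54 lower members, 65.1% of the 83, against 29.9% of all tested genes, and for 10 higher members, 12% against 41.4%. The median log2 change was -0.28 in the members and 0.08 in all tested genes.

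Ndufv3 was at 58.9, 61.0 and 60.3 TPM in WT with acetate and 28.5, 32.6 and 36.6 TPM in GLUT3KO with acetate. The highest GLUT3KO library was far under the lowest of WT, a log2 change of -0.87 ± 0.12 (SE, limma adjusted p = 6.7e-05). Ndufb10, an accessory subunit of the membrane arm, was at 149, 153 and 159 TPM against 84.6, 93.1 and 95.8 TPM. Its log2 change was -0.75 ± 0.12 (adjusted p = 0.000177), which with correction for exon length and GC was -0.49 (adjusted p = 0.209). Ndufa10 was at 100.2, 108 and 108 TPM against 69.5, 71.3 and 67.9 TPM, without overlap (-0.59 ± 0.12, adjusted p = 0.0012).

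Uqcrfs1 (chr13:30540312-30545316) was at 218, 237 and 215 TPM in WT with acetate and 358, 397 and 364 TPM in GLUT3KO with acetate. All 3 GLUT3KO libraries were higher, by a log2 change of 0.74 ± 0.21 (SE, limma adjusted p = 0.013), a call that was lost with median-ratio scaling and with voom. Atp5c1, the gamma subunit of the F1 part, was at 219, 226 and 220.3 TPM against 152, 161 and 168 TPM, a change of -0.47 ± 0.15 (adjusted p = 0.029). Uqcrc2, a core subunit of complex III, changed by -0.35 ± 0.11 (adjusted p = 0.021). The calls of Atp5c1 and Uqcrc2 were kept in 9 and 10 of 15 alternatives, and those of Ndufa12 and Cox7a2l in 7 each. Leaving out any single library of the groups compared ended the call of Atp5c1. Cox7a1 and Cox4i2 changed by -1.31 ± 0.25 and -1.30 ± 0.21, ratios of the mean TPM of 2.80 and 3.60. In the fit of only these 2 groups, which are the tightest, 53 members were lower and 10 higher, with 66% of all tested genes called.

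**Figure D4:**
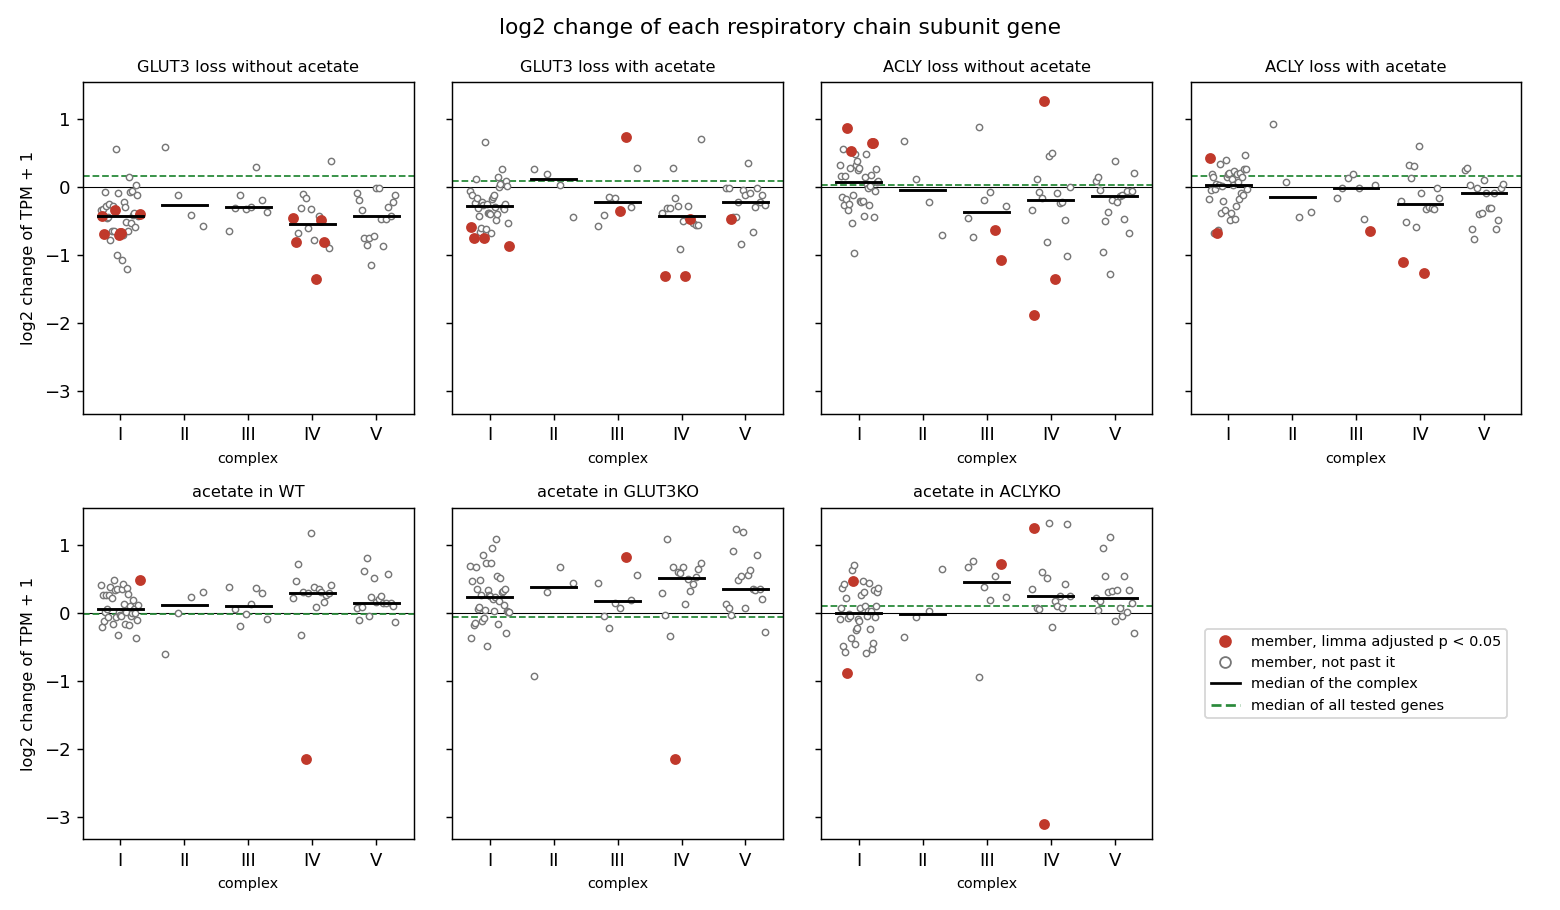
Each point is 1 member gene, by complex on the x axis, with its log2 change of TPM + 1 on the y axis, in 7 comparisons; filled points passed the limma test, solid lines are medians of a complex and the dashed line the median of all tested genes. In both comparisons of GLUT3 loss the medians of complexes I, III, IV and V lie under the dashed line. Those of complexes I and IV are -0.42 and -0.54 without acetate and -0.28 and -0.43 with it. Cox6a2 is the lowest point in each acetate comparison (-2.15, -2.14 and -3.11).

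In cells without ATP-citrate lyase, measured without acetate, 5 members were higher and 4 lower than in WT. These are 6.02% and 4.82% of the members, against 12.7% and 6.38% of all tested genes (19.1% in either direction). The higher ones were Ndufa9, Ndufs6, Ndufs5 and Ndufa5 of complex I and Cox6a2, and the lower ones Uqcrh and Uqcrfs1 of complex III, Cox4i2 and Cox7a1. The median log2 change was -0.08 in the members, 0.07 in complex I and -0.37 in complex III, against 0.03 in all tested genes. These medians were 0.08, 0.21 and 0.02 without the 5 libraries, against 0.15.

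Uqcrh (chr4:116066965-116075070) was at 529, 749 and 659 TPM in WT and 248, 323 and 348 in ACLYKO. The groups did not overlap, the ratio of the means was 2.11 and the log2 change -1.07 ± 0.18 (SE, limma adjusted p = 0.000779). The pseudogene Gm12854 lies within the span of Uqcrh on the opposite strand and was at 7.19, 22.7 and 21.7 TPM in WT and 2.08, 8.85 and 11.0 in ACLYKO. No source used here says whether the counting used strand, so its reads and those of Uqcrh may not be separate, though they are few beside those of Uqcrh. Uqcrfs1 was at 133, 181 and 212 TPM in WT and 110.4, 101 and 123 in ACLYKO (-0.63 ± 0.21, adjusted p = 0.046), a call kept in 7 of 15 alternatives.

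Ndufa9, an accessory subunit near the quinone site, was at 93.2, 100.1 and 109 TPM in WT and 125, 154 and 159 in ACLYKO. All 3 ACLYKO libraries were higher, with a log2 change of 0.53 ± 0.12 (SE, limma adjusted p = 0.0072). Ndufs6, Ndufs5 and Ndufa5, also accessory subunits, rose by 0.65, 0.65 and 0.87, with their highest values in ACLYKO 1. Ndufs6 was at 121, 103 and 102 TPM in WT and 256, 134 and 144 in ACLYKO, and Ndufa5 at 38.6, 56.4 and 59.7 TPM and 150.2, 67.7 and 80.3. Left without the 5 libraries, the changes of Ndufs6, Ndufs5 and Ndufa5 were 0.43, 0.28 and 0.34, and leaving out ACLYKO 1 alone ended the calls of Ndufs5 and Ndufa5. Reads of Ndufs5 are uncertain because the pseudogene Ndufs5-ps is listed beside it at a mean of 49.6 TPM.

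ACLYKO 1 also stood out in complex III, which took 15.1% of the summed TPM of all members there and 10.5% and 10.2% in ACLYKO 2 and 3, against 12.3% to 13.5% in WT. Uqcrb, chosen after its values were seen, was at 879 TPM in ACLYKO 1 against 223 and 232 in ACLYKO 2 and 3. Uqcr11, a small accessory subunit, was at 19.8 TPM against 121 and 128. Both genes were thus within 171 to 232 TPM and 110.2 to 128 TPM in the other untreated WT and ACLYKO libraries.

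Cox4i2 had the smallest adjusted p of the members (-1.88 ± 0.21, limma adjusted p = 2.2e-05), and Cox7a1 changed by -1.35 ± 0.25 (adjusted p = 0.0015) with a 3.01-fold ratio of means. Cox6a2 was higher by 1.26 ± 0.41 (adjusted p = 0.044), overlapping with WT through ACLYKO 1, and this call was kept in 6 of 15 alternatives. Without the 5 libraries, ACLYKO 1 among them, it was higher by 2.01. In that fit 22 members were higher and 15 lower, with 49.7% of all tested genes called. Sdha was then higher by 0.73, while with all libraries it was 0.68 ± 0.32 (limma adjusted p = 0.16). The 5 libraries were picked from these data, so the calls of the fit without them are no separate evidence. The fit of only the groups compared called 1 member, Cox4i2, with 2.4% of all tested genes.

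With acetate, 4 members were lower in ACLYKO than in WT and 1 higher, 4.82% and 1.2% of the members, against 1.98% and 11.5% of all tested genes (13.5% in either direction). Cox7a1 changed by -1.26 ± 0.25 (SE, limma adjusted p = 0.0035), with a ratio of means of 2.73, and Cox4i2 by -1.10 ± 0.21 (adjusted p = 0.0025), with a ratio of 2.88. Uqcrh was at 805, 817 and 738 TPM in WT and 409.9, 566 and 539 in ACLYKO (-0.65 ± 0.18, adjusted p = 0.026), without overlap. Ndufa6, an accessory subunit of the LYR family, was at 204, 240.0 and 221 TPM against 107, 162 and 151 (-0.68, adjusted p = 0.038). Ndufa10 was higher, at 161, 136 and 131 TPM against 100.2, 108 and 108 (0.43, adjusted p = 0.023). The calls of Ndufa6 and Ndufa10 were each kept in 8 of 15 alternatives. Leaving out any single WT library with acetate ended both. Without ACLYKO with acetate 1 and the other 4 libraries, 17 members were higher and 8 lower, with 37.8% of all tested genes called. Of the 17 higher members 12 belonged to complex I.

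Both losses share the WT libraries, so their values are set side by side rather than counted as separate evidence. Cox7a1 changed by -1.35 in each without acetate, and by -1.31 and -1.26 with it. Uqcrfs1 was at 0.29 and -0.63 without acetate and at 0.74 and -0.46 with it. The direct comparison of untreated GLUT3KO with ACLYKO called 17 members lower in GLUT3KO and 4 higher, 20.5% and 4.82%, against 15.2% and 25.2% of all tested genes (40.4% in either direction). Complex I held 14 of the 17 lower ones. Ndufb4 and its paralogs Ndufb4b and Ndufb4c, which may share reads, are counted separately among these 14. Ndufa9 was at 76.6, 90.7 and 82.4 TPM in GLUT3KO, under all 3 ACLYKO libraries, with a difference of -0.80 ± 0.12 (SE, limma adjusted p = 0.000107). Ndufs6 differed by -1.03 ± 0.19, a call lost in the fit of only the groups compared (adjusted p = 0.0625), and Ndufb4 by -1.08 ± 0.17, or -0.60 without the 5 libraries. Uqcrh and Uqcrfs1 were higher in GLUT3KO by 0.89 ± 0.18 and 0.92 ± 0.21 (adjusted p = 0.0012 and 0.0023). Cox7a1 did not pass, at 0.00 ± 0.25. Without ACLYKO 1 alone 48 members were called, with 51.2% of all tested genes.

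**Figure D5:**
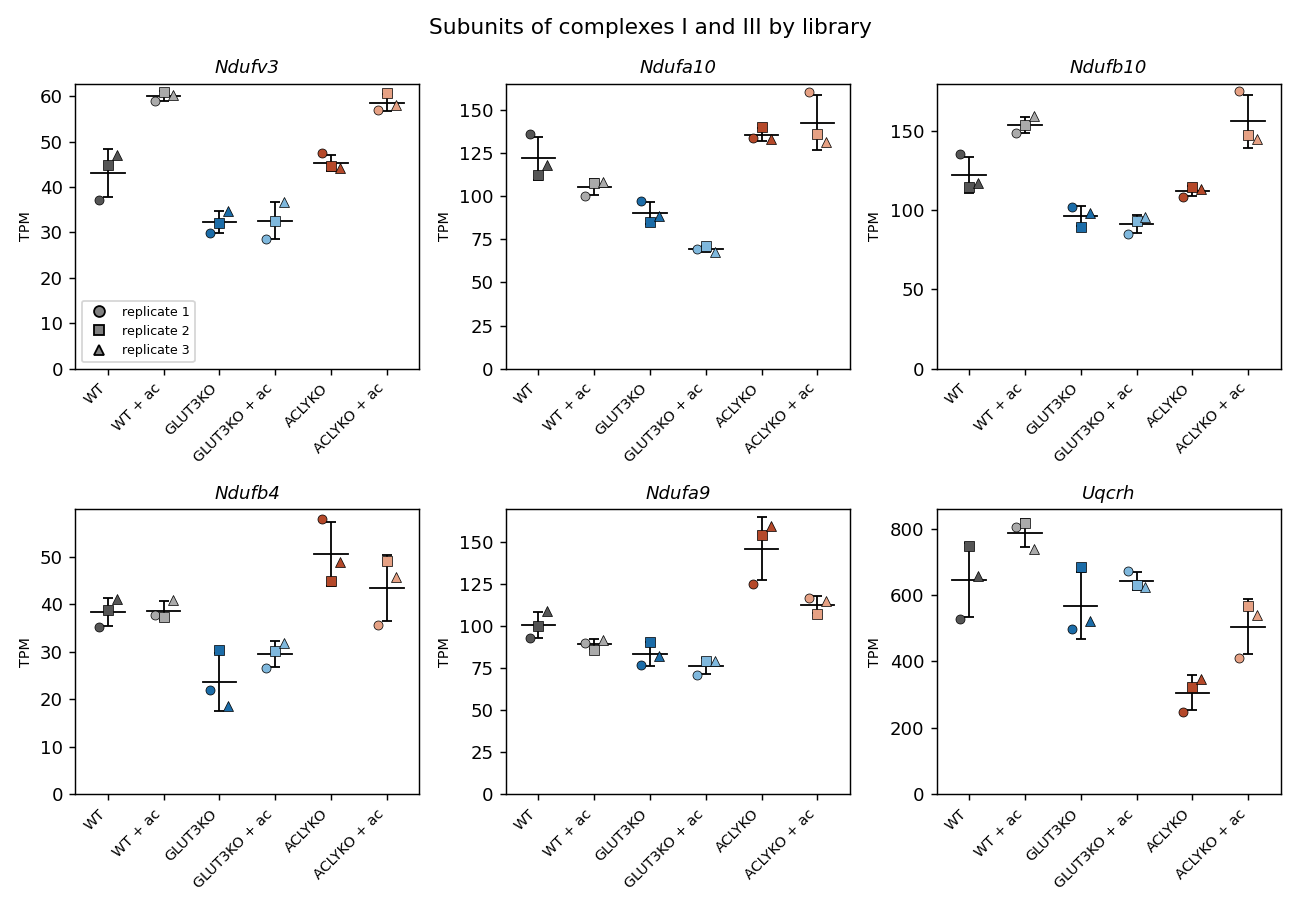
The y axis is TPM on a linear scale from 0, with the groups on the x axis (ac for acetate); points are libraries (symbol by replicate number), lines and bars the mean ± SD of 3. Ndufv3 lies at 28.5 to 36.6 TPM in all GLUT3KO libraries, Ndufa9 is highest in untreated ACLYKO at 125 to 159 TPM, and Uqcrh is lowest there at 248 to 348 TPM.

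Acetate changed 2 members in WT, 2 in GLUT3KO and 5 in ACLYKO. Without the 5 libraries it changed 9 in WT and 27 in ACLYKO, with 27.3% and 40.6% of all tested genes called. For GLUT3KO no such count is given, because only 1 untreated library is then left. In WT 1 was higher and 1 lower, 1.2% each, against 4.22% and 2.28% of all tested genes (6.5% in either direction). Cox6a2 fell by 2.15 on the log2 scale (log2 change -2.15 ± 0.41, SE, limma adjusted p = 0.0057), a 7.40-fold ratio of mean TPM. Itgad, whose span overlaps that of Cox6a2 on the other strand by 70 bases, was at most 0.145 TPM in any library. Ndufv3 rose from 37.1, 44.8 and 47.2 TPM to 58.9, 61.0 and 60.3 (0.48 ± 0.12, adjusted p = 0.029), without overlap. This call was kept in 6 of 15 alternatives and lost, among others, with the replicate block.

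In GLUT3KO 1 member was also higher and 1 lower with acetate, 1.2% each, against 4.86% and 7.89% of all tested genes (12.7% in either direction). Cox6a2 changed by -2.14 ± 0.41 (SE, limma adjusted p = 0.0035), an 8.17-fold ratio that rests on 4 to 7 reads per library with acetate. Uqcrfs1 rose from 166, 295 and 192 TPM to 358, 397 and 364 (0.81 ± 0.21, adjusted p = 0.018). With the 5 libraries left out its change was 0.33 and it did not pass; GLUT3KO 2 alone then stands for the untreated group. The median log2 change was 0.32 in the members against -0.07 in all tested genes. Without the 5 libraries it was -0.13 against -0.08, so the sign of the median rests on GLUT3KO 1 and 3.

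In ACLYKO 3 members were higher and 2 lower with acetate, 3.61% and 2.41%, against 11.7% and 5.6% of all tested genes (17.3% in either direction). Cox6a2 changed by -3.11 ± 0.41 (SE, limma adjusted p = 0.000101), a 16.2-fold ratio of mean TPM, a call lost in the fit of only the groups compared (adjusted p = 0.0616). Cox4i2 rose by 1.24 ± 0.21 (adjusted p = 0.000627), from 1 read in 3 libraries to 10, 14 and 14 reads. Uqcrh rose from 248, 323 and 348 TPM to 409.9, 566 and 539 (0.72 ± 0.18, adjusted p = 0.012), and Ndufb10 from 108, 114 and 113 TPM to 175, 147 and 145 (0.47 ± 0.12, adjusted p = 0.011). With correction for exon length and GC the calls of Ndufb10 (0.14) and Cox4i2 (0.81, adjusted p = 0.0598) were lost. Ndufa5 changed by -0.89 (adjusted p = 0.038), a call lost without ACLYKO 1 and with the replicate block, and by -0.36 without the 5 libraries. Both Uqcrh and Cox4i2 remained below all libraries of WT with acetate.

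Whether acetate acted differently in a knockout than in WT was tested directly. No member passed in GLUT3KO against WT or in ACLYKO against WT (0 of 83 each by limma, against 0.773% and 1.34% of all tested genes). At an unadjusted p under 0.05 there were 2 and 2, and with voom on recovered reads 0 and 1 passed. Cox6a2 differed in its acetate change by 0.00 ± 0.58 between GLUT3KO and WT and by -0.96 ± 0.58 between ACLYKO and WT (adjusted p = 0.608). For Cox4i2 the difference between ACLYKO and WT was 0.78 ± 0.29 (adjusted p = 0.29), and for Ndufv3 that between GLUT3KO and WT was -0.47 ± 0.17 (adjusted p = 0.388). With those 5 libraries left out the difference between ACLYKO and WT was -1.63 for Cox6a2 and 0.56 for Uqcrh. These libraries were picked from the data, and ACLYKO 1 was the untreated ACLYKO library with low Cox6a2. No p is given for these values for that reason.

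Assembly factors and other genes that serve the chain were taken from lists of known function. Of 18 measured complex I assembly factors 5 were lower and 0 higher in GLUT3KO, both without and with acetate, where 8.47% and 9.5% of all tested genes were lower and 24.9% and 20.9% higher. Ndufaf4, an early assembly factor, changed by -0.95 ± 0.14 (SE, limma adjusted p = 7.8e-05) and Ndufaf7, another assembly factor, by -0.81 ± 0.16 without acetate. In ACLYKO without acetate 1 of the 18 was higher and 1 lower, where 12.7% and 6.38% of all tested genes were. With acetate these counts were 0 and 0 in ACLYKO, where the shares of all tested genes were 11.5% and 1.98%. Of 24 complex IV assembly factors 0 passed in GLUT3KO without acetate, and 1 was higher and 2 lower with acetate. In complex III assembly Ttc19 was higher by 1.34 ± 0.23 and the chaperone gene Bcs1l lower (-0.73 ± 0.14) in GLUT3KO.

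Atpif1, the inhibitor of the ATP synthase, changed by -0.68 ± 0.11 (limma adjusted p = 0.000208) in GLUT3KO without acetate. The shares of all tested genes there were 8.47% lower and 24.9% higher. Of 12 genes of mitochondrial mass and import 2 were lower and 0 higher, with the chaperonin Hspe1 at -1.10 ± 0.21. Of 13 genes of mitochondrial DNA expression 1 was lower, the elongation factor Tefm (-0.89 ± 0.17). Of 10 regulators of respiratory gene transcription 3 were higher and 1, Myc, lower, with a median of 0.24, and the share higher was near that of all tested genes. Between GLUT3KO and WT, both with acetate, Myc differed by -1.21 ± 0.21 (limma adjusted p = 0.00048), at 245, 234 and 231 TPM against 507, 563 and 573. Ppargc1b, a coactivator of respiratory genes, rose by 0.66 ± 0.11 with acetate in ACLYKO (limma adjusted p = 0.000526), where 11.7% of all tested genes were higher. Its levels were low, at 0.137, 0.292 and 0.235 TPM without acetate and 1.21, 0.756 and 0.844 with it. The rise was not limited to ACLYKO, as WT went from 0.542, 0.461 and 0.315 TPM to 1.01, 0.990 and 1.13. In GLUT3KO all libraries with acetate were also above those without it.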

How the data were processed

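Per the labels' protocols, stranded poly(A) libraries were sequenced. The build GRCm38.p6, featureCounts 1.6.4 of Subread, STAR 2.7.2b, cutadapt, bcl2fastq 2.20.0.422 and DESeq2 are named, with neither role nor order, per the submitters' processing notes. The authors deposited TPM, entered here as an other unit than counts because of decimal commas, with each gene's combined exon length in the deposited table. TPM times exon length gave whole multiples of 1 read for 100% of the values checked, those under 500 reads, in each library (within 0.01 reads).

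Group means of log2(TPM + 1) over all 18 libraries were fitted with limma 3.58.1 (R 4.3.3; trend and robust on) for 14229 genes with at least 1 TPM in at least 3 libraries, and p-values adjusted by Benjamini-Hochberg in each of 10 comparisons, with a threshold of 0.05. TPM depends on exon length and on the other genes of a library. The fit was also run on simulated data with noise drawn independently for each gene and library. These libraries share a component of variation, so that run cannot show how often shared deviations give calls. The members and lists were chosen with earlier results of these data known. Named were, per comparison of a loss or of acetate, up to 3 passing members per complex and direction, then complex II, isoforms, extremes of level, Atpif1 and up to 2 genes per list. The table has 24 rows of the mitochondrial chromosome and none is protein-coding, so its subunits are not analysed here.

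Same-numbered libraries deviated together in every pair of untreated WT and ACLYKO (correlations 0.285 to 0.577) and of each genotype without and with acetate (0.120 to 0.548), but not of the other comparisons. Alternatives were a pseudocount of 0.1, no or a stricter filter, median-ratio scaling, a fit of only the groups compared, a replicate block, voom on recovered reads, length and GC correction, leaving out each library, and leaving out together the 5 named in the report, which were picked from the data.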

Additional observations from a re-analysis of the deposited data

Results flagged for a closer look

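The acetate change of Ckmt1, the mitochondrial creatine kinase from the list of carriers, differed between ACLYKO and WT by -2.04 on the log2 scale (limma, a test of the difference itself, adjusted p = 0.013). It was at 4.61, 12.8 and 11.4 TPM in ACLYKO and 1.52, 1.77 and 1.36 with acetate, and at or under 0.713 TPM in all WT libraries.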

How the results depend on the processing

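The number of members called moved by more than 1.5 times under several settings, and the cause was not tested. In GLUT3 loss without acetate 12 became 24 with median-ratio scaling, 6 in the fit of only the groups compared, 22 with voom, 7 with length and GC correction and 31 without the 5 libraries. In ACLY loss without acetate 9 became 5, 1, 4, 14 and 37 under the same settings. With acetate, 10 in GLUT3 loss became 63 in the fit of only the groups compared and 57 without the 5 libraries, and 5 in ACLY loss became 8 and 25. For acetate in WT 2 became 9 without the 5 libraries, and in GLUT3KO 2 became 4 with length and GC correction and 11 without them. In ACLYKO 5 became 1 in the fit of only the groups compared, 9 with the correction and 27 without them. The test of the acetate change in ACLYKO against WT called 1 member with a pseudocount of 0.1, 1 with voom and 2 without the 5 libraries. GLUT3KO against ACLYKO went from 21 to 34 with median-ratio scaling, 6 in the fit of only the groups compared and 42 without the 5 libraries. The log2 ratio of the complex II sum in GLUT3KO to WT went from 0.00 to -0.22 with median-ratio scaling, which moved the median of all tested genes in that comparison from 0.17 to -0.01.

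With the replicate block acetate called 1 member in WT and 4 in GLUT3KO, against 2 and 2. GLUT3 loss without acetate then had 17 and ACLY loss 9. Of the calls of single members, the block ended 2, Ndufv3 with acetate in WT and Ndufa5 with acetate in ACLYKO. Of 18 libraries 13 correlated best with their own number.

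Leaving out 1 library gave 6 to 22 and 4 to 14 members for GLUT3 and ACLY loss without acetate, 5 to 7 and 2 to 5 with it, 1 to 2, 1 to 16 and 3 to 9 for acetate in WT, GLUT3KO and ACLYKO, 0 and 0 to 1 for the 2 tests of the acetate change, and 16 to 48 for GLUT3KO against ACLYKO. The most came without GLUT3KO 2 (22 and 16) or ACLYKO 1 (14, 9 and 48), and the fewest in the untreated losses without WT 2 or 3 (6 and 6 for GLUT3, 5 and 4 for ACLY). With acetate, 6 were called in GLUT3 loss without any 1 of the WT libraries and 2 in ACLY loss. Cox7a1 passed in all 15 alternatives in GLUT3 loss without and with acetate and in ACLY loss with acetate, and in 14 of 15 in ACLY loss without it. Cox6a2 passed in all 15 with acetate in WT and in GLUT3KO, and in 14 of 15 in ACLYKO. The 1 estimate that changed sign was Ndufb10 in GLUT3 loss without acetate, at 0.0135 with length and GC correction (adjusted p = 0.978).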
